A study of Homo sapiens with 9 samples.

Results

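The region described here is 10 Mb of human chromosome 14, from position 80000001 to position 90000000 of GRCh38, around cytogenetic band 14q31. Its members were all 10000 windows of 1 kb on the grid of the H3K9me3 domain lists. Of these, 6517 lay in a listed domain of at least 1 of 8 libraries, out of 826613 such windows in all 2998566 of the genome. The region was chosen by its covered length in the domain lists, which differs between the 2 constructs of the study, so every difference between them below is a description. Counts of bins and genes called over the genome are given as background only and are no evidence about the region.

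The libraries came from hTERT RPE-1, an established line of human retinal pigment epithelium immortalised with telomerase. One set of cells stably overexpressed an mCherry fusion of lamin B1 (LmnB1), as clones LmnB1_16 and LmnB1_6. The control cells overexpressed the red fluorescent protein mCherry alone, as clones mCherry_3 and mCherry_4. Each clone gave 2 biological replicates, so there were 4 LmnB1 and 4 mCherry libraries from 2 clones per construct, and all of these cells received doxycycline at 0.05 ug/mL for 24 h. An input sample of untreated wild-type hTERT RPE-1 completed the 9 samples, and the input counts in the domain lists, the same in each list for the same coordinates, are taken to be its reads. The labels do not name the promoter that drives the transgenes, and only 2 clones stand for each construct. H3K9me3 was profiled by Cut&Run, in which a nuclease tethered to the antibody releases the DNA around the mark for sequencing.

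H3K9me3 is written by SETDB1 and the SUV39H enzymes, is bound by HP1 proteins and marks compact, mostly silent chromatin. Lamin B1 is a filament protein of the nuclear lamina, the meshwork under the inner nuclear membrane. Stretches of the genome that touch the lamina are long, poor in genes and often marked by H3K9 methylation. Gene deserts are long intervals with few or no protein-coding genes, and the interval between SEL1L and FLRT2 is of this kind.

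The region held 20 protein-coding genes, gathered towards both ends. Between the upper end of SEL1L and the start of FLRT2 lay 4.0 Mb with LOC124903401 as the single protein-coding gene model. Between the end of FLRT2 and the lower coordinate of GALC lay another 2.28 Mb with none. The promoters of the genes that frame or sit in the domains are printed here, because whether a domain stops short of a gene start or covers it is part of the description. Each runs from 250 bases before to 50 bases after an annotated start, 5′ to 3′ on the gene's own strand, from RefSeq on GRCh38.p14. Capitals mark the dinucleotide CG, the site of DNA methylation, which reads the same on both strands. The SEL1L promoter is at chr14:81533804-81534103 on the minus strand, LINC02305 at chr14:83915298-83915597 on the minus strand, and LOC124903401 at chr14:83974854-83975153 on the minus strand. The FLRT2 promoter is at chr14:85529894-85530193 on the plus strand and the GALC promoter, of 4 annotated GALC starts the one with most CG, at chr14:87992805-87993104 on the minus strand.
SEL1L: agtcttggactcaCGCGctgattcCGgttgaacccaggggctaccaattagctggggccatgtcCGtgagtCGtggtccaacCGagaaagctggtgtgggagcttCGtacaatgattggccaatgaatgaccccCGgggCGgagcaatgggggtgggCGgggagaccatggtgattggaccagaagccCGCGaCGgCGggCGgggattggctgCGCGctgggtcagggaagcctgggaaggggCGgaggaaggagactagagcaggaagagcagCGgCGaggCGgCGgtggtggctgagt
LINC02305: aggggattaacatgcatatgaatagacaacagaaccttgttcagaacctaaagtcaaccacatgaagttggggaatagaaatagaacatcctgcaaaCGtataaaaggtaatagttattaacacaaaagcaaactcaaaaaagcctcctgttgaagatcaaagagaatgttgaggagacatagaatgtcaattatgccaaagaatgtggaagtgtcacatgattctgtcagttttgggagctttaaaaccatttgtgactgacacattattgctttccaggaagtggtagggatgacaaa
LOC124903401: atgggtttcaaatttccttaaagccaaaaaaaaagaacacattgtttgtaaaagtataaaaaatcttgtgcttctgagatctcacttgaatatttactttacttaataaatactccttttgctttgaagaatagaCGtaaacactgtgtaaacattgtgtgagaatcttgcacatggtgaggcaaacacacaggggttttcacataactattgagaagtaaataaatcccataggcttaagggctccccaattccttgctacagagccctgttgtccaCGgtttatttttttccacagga
FLRT2: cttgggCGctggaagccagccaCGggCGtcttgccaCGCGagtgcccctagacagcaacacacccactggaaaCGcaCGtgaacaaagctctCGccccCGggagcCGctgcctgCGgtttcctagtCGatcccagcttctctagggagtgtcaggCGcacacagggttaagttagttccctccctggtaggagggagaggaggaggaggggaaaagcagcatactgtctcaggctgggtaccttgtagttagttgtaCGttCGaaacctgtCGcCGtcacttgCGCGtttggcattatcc
GALC: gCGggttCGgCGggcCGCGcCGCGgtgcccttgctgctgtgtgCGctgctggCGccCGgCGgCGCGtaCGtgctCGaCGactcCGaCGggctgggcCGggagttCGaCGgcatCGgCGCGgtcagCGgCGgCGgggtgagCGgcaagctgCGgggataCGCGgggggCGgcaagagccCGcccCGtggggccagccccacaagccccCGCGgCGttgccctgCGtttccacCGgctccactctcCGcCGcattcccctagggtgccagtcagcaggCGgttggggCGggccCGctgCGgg

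SEL1L and FLRT2, the protein-coding genes on either side of the region's first long run of domains, had 22 and 19 CG in these 300 bases, and their starts were in no listed domain of any library. LINC02305, a lncRNA chosen after its values were seen, had 1 CG and was listed in 4 LmnB1 and 0 mCherry libraries. LOC124903401 had 2 CG and its promoter was wholly listed in 3 LmnB1 libraries and 1 mCherry library. The GALC start had 45 CG and was listed in 4 LmnB1 and 3 mCherry libraries, so a start rich in CG was not always outside the domains. At least 1 CG stood in 96.0% of all 35116 promoters of the same length. As many CG as in GALC stood in 3.48% of them, as many as in SEL1L in 37.7% and as many as in FLRT2 in 42.9%, while 11.0% had as few as LINC02305. Over the 63 promoters in the region the median was 5 CG, against 14 over all promoters. It was 1.5 for the 8 promoters listed in all 8 libraries, 2.5 for the 4 listed in at least 3 LmnB1 and at most 1 mCherry libraries, and 11.5 for the 40 listed in none. The domains are kilobases to megabases long, so a listed promoter says that a domain spans it, not that the mark was resolved at the start itself.

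The libraries differed in depth and in how much they listed, and some of this touches the region. Lists covered 357 to 646 Mb in the LmnB1 libraries and 320 to 529 Mb in the mCherry libraries, with 4467294 to 10321442 and 2855378 to 6959349 H3K9me3 reads in domains. Depth relative to the input was 0.880 to 1.01 in the LmnB1 libraries and 0.421 to 0.859 in the mCherry libraries, so each LmnB1 library was deeper than each mCherry library, and depth and construct cannot be told apart. LmnB1_6 replicate 2 and mCherry_4 replicate 2 had the lowest median log2 enrichment per domain, 0.70 and 0.72. The 2 mCherry_3 replicates did not differ detectably beyond the sampling noise over 229 domains with the same coordinates (chi-square per degree of freedom 1.08, chi-square test p = 0.197). They were therefore counted as 1 sample wherever a mean ± SD is given for mCherry, so that n = 3. The LmnB1_16 replicates were nearly as alike (1.10 over 648 domains, chi-square test p = 0.038) and were kept as 2. Of the region's windows listed in either replicate, the share listed in both was 0.935 for LmnB1_16 and 0.893 for mCherry_3. Over the genome it was 0.820 and 0.845. Each SD is thus a spread over libraries from 2 clones, not over independent samples.

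In the region as a whole, the LmnB1 libraries listed more H3K9me3 than the mCherry libraries. The listed length was 6045 and 5749 kb in the LmnB1_16 replicates and 6220 and 5149 kb in the LmnB1_6 replicates, against 3980 and 3952 kb in the mCherry_3 replicates and 3622 and 3363 kb in the mCherry_4 replicates. The groups did not overlap. Libraries pool many cells, so more cells with a listed domain and more mark per cell cannot be told apart. The difference of the means was 2061.5 kb over all 8 libraries, and 2140 kb with the mCherry_3 pair counted once. The region made up 0.962 to 1.44% of each LmnB1 list and 0.749 to 1.05% of each mCherry list.

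The excess did not come from more domains. In the LmnB1_16 replicates the region held 24 and 17 domains, and in the LmnB1_6 replicates 20 and 62, against 21 and 20 in the mCherry_3 replicates and 54 and 59 in the mCherry_4 replicates, 123 in LmnB1 and 154 in mCherry libraries. Domains in the LmnB1 libraries were longer at the top of their range. The longest domain was 2373 and 2158 kb in the LmnB1_16 replicates and 1547 and 376 kb in the LmnB1_6 replicates, against 1635 and 1292 kb in the mCherry_3 replicates and 309 and 168 kb in the mCherry_4 replicates. The values overlapped between constructs, and LmnB1_6 replicate 2 and both mCherry_4 replicates were cut into the most pieces. Of all 277 domains, 88 were at least 100 kb and 6 at least 1 Mb long. Neighbouring domains were never closer than 4 kb in any list, while the median gap in the region was 5 to 51 kb by library.

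**Figure D1:**
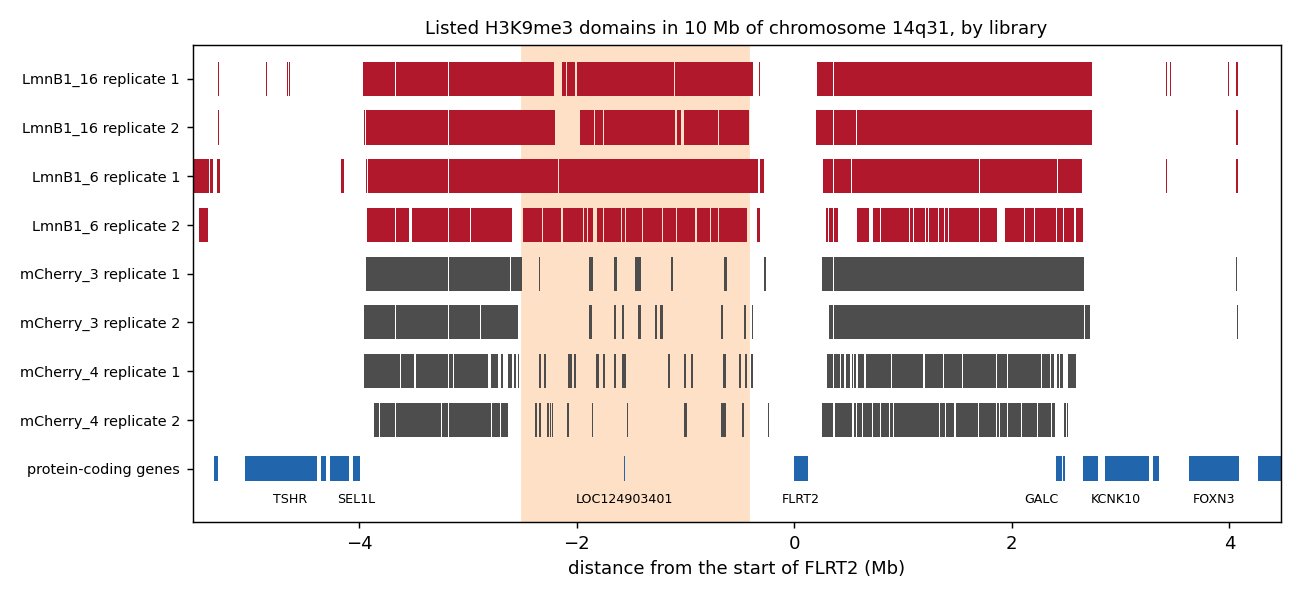
Listed H3K9me3 domains of each library along the region, with LmnB1 libraries above mCherry libraries and protein-coding genes at the bottom; the x axis is the distance from the start of FLRT2 in Mb. All 8 libraries list both outer blocks, and the shaded 2087 kb stretch is listed for 85.3 to 99.6% in LmnB1 libraries and for 7.86 to 15.1% in mCherry libraries.

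From left to right, the listed windows fell into a block between SEL1L and the desert's middle that both constructs share, a stretch where they part, a gap around FLRT2 and a second shared block that ends over KCNK10. The first block ran from 81566001 to 83028000, over 1462 kb. The parted stretch ran on from 83028001 to 85115000, over 2087 kb. It is the run of windows over which the share of LmnB1 libraries minus the share of mCherry libraries, less 50 percentage points, summed highest. After a thin tail to 85295000, 436 kb around FLRT2 were listed in none of the 8 libraries, and the second block ran from 85731001 to 88268000, over 2537 kb.

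The first shared block began close to the upper end of SEL1L, the side of its promoter, in each library and had no protein-coding gene in it. Its first listed window was 32.1 kb past SEL1L in LmnB1_16 replicate 1, the nearest, and 135 kb past it in mCherry_4 replicate 2, the farthest. The block was listed over 1448 and 1435 kb in the LmnB1_16 replicates and 1421 and 1261 kb in the LmnB1_6 replicates, against 1420 and 1392 kb in the mCherry_3 replicates and 1233 and 1166 kb in the mCherry_4 replicates. These values overlapped between constructs. The means were 1391 ± 87.5 kb (SD, n = 4) in LmnB1 libraries and 1268 ± 124 kb (SD, n = 3) in mCherry libraries, a difference of 123 kb. With each mCherry_3 replicate counted, the difference was smaller, 88.5 kb. All 8 libraries listed 988 of its windows, 67.6% of the block.

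Several edges inside this block were the same to the window in many libraries. The domain from 82037001 to 82348000, 311 kb long, was identical in 5 libraries. It held 5348 and 5262 H3K9me3 reads in the LmnB1_16 replicates and 5275 in LmnB1_6 replicate 1, against 4300 and 4250 in the mCherry_3 replicates, each over 2609 input reads. The ratio of H3K9me3 to input reads there was 2.05, 2.02 and 2.02 in the LmnB1 libraries and 1.65 and 1.63 in the mCherry libraries. Divided by depth, as the authors' log2 enrichment does, the same domain had 1.22, 1.00 and 1.10 in the LmnB1 libraries and 1.01 and 1.00 in the mCherry libraries. The read ratios thus separated the constructs in this domain and the depth-adjusted values overlapped. On either side of the domain, 82033001 to 82037000 and 82348001 to 82353000 were listed in no library, and 82354001 was the start of a domain in 6 libraries.

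The constructs parted around 83028000, with mCherry coverage thinning before it. In steps of 50 kb from 82800001 to 83100000, the mCherry mean was 83.5, 75, 66, 57, 15 and 0%. The LmnB1 mean was 100, 100, 92.5, 75, 82 and 99.5%. In the 50 kb before that position, 50, 50, 50 and 0 kb were listed in the LmnB1 libraries, with LmnB1_6 replicate 2 at 0. The mCherry libraries had 50, 8, 11 and 0 kb there, with mCherry_3 replicate 1 at 50. In the 50 kb after it, 50, 50, 50 and 42 kb were listed in the LmnB1 libraries and 0 kb in each mCherry library. The border falls at the end of a weak domain of mCherry_3 replicate 1, from 82925001 to 83028000. Its log2 enrichment was 0.61, close to the lowest value in any list, against 0.97 in the domain before it. It was that library's last domain of at least 100 kb before FLRT2. In the other mCherry libraries the last such domain ended at 82986000 in mCherry_3 replicate 2, at 82714000 in mCherry_4 replicate 1 and at 82745000 in mCherry_4 replicate 2. In the LmnB1 libraries the last domain of at least 100 kb ended at 85154000 and 85115000 in LmnB1_16 and at 85193000 and 85073000 in LmnB1_6, over 2 Mb farther towards FLRT2.

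Both LmnB1_16 replicates carried 1 domain across the parting position, with no gap at it. These were 82353001 to 83294000, 941 kb with a read ratio of 2.02, and 82354001 to 83329000, 975 kb with a ratio of 1.96. LmnB1_6 replicate 1 likewise had 1 domain over it, which ended at 83360000. LmnB1_6 replicate 2 had a gap there instead, between a domain end at 82935000 and the next start at 83036001. So 3 of 4 LmnB1 libraries were listed without a break where the last long mCherry domains ended.

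The parted stretch was nearly filled in the LmnB1 libraries and nearly empty in the mCherry libraries. The listed length was 1966 and 1781 kb in the LmnB1_16 replicates and 2078 and 1871 kb in the LmnB1_6 replicates, against 167 and 164 kb in the mCherry_3 replicates and 316 and 206 kb in the mCherry_4 replicates. As a share of the stretch this was 94.2, 85.3, 99.6 and 89.7% in LmnB1 libraries and 8.0, 7.86, 15.1 and 9.87% in mCherry libraries. The groups did not overlap, and the gap between the lowest LmnB1 and the highest mCherry library was wider than the range of either. The means were 92.2 ± 6.11% (SD, n = 4) and 11.0 ± 3.73% (SD, n = 3), a difference of 81.2 points. With each mCherry_3 replicate counted, it was 82.0 points. The stretch's ends were set on these same libraries, so the choice of ends favours this difference.

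**Figure D2:**
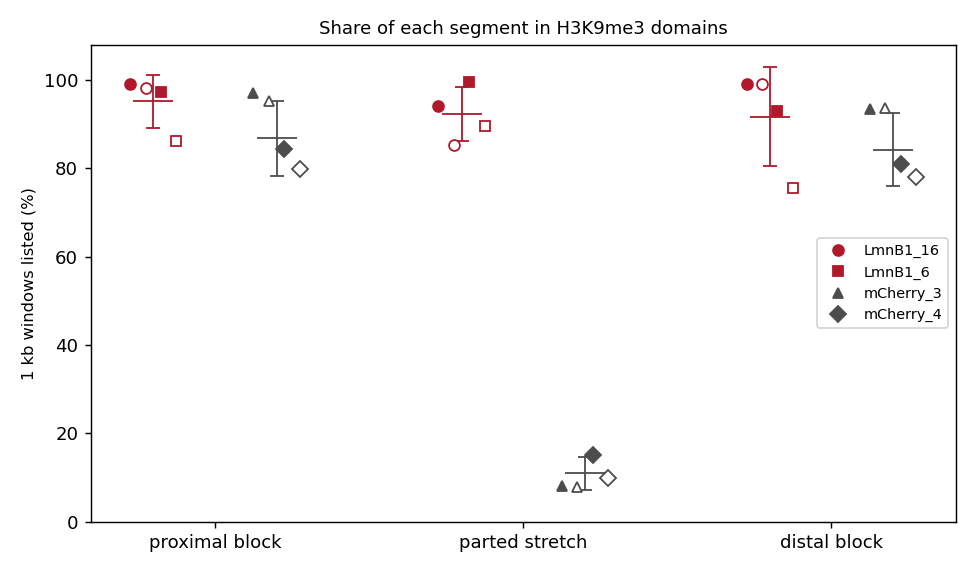
Share of windows listed, in percent, for the first shared block (proximal), the parted stretch and the second shared block (distal), one point per library, with filled symbols for replicate 1 and open symbols for replicate 2; bars are the mean and SD with the mCherry_3 replicates counted once. LmnB1 and mCherry libraries overlap in both shared blocks and not in the parted stretch, where LmnB1 libraries are at 85.3 to 99.6% and mCherry libraries at 7.86 to 15.1%.

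No window of the parted stretch was listed in all 8 libraries and none was unlisted in all 8. All 4 LmnB1 libraries and no mCherry library listed 1087 of its windows, 52.1% of the stretch, while no window of the region showed the opposite. Over all windows listed in any library, 0.83% had the first pattern and 0.105% its opposite. Read loosely, as at least 3 LmnB1 and at most 1 mCherry libraries, 1760 windows of the stretch had it, against 5.21% of all listed windows. The region held 15.8% of the genome's 6865 windows with 4 LmnB1 and 0 mCherry libraries, and 0.788% of its listed windows. The rule used this contrast, so nothing further is read from these shares.

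In bins of 500 kb, 15 of the region's 20 bins were covered enough to be tested with limma. At an adjusted p below 0.05, 3 were called, all with a higher covered percent in LmnB1 libraries. The called share over all 2143 bins was 0.233%. The region was chosen on this same difference, which favoured calls in it, so nothing is read from the 3. The called bins ran from 83500001 to 85000000. In 84000001 to 84500000, 97.2, 91.6, 100 and 96% were covered in the LmnB1 libraries, against 13.6, 15, 2.6 and 0% in the mCherry libraries. In 83000001 to 83500000, which holds the parting position and was not called, the values were 84.4, 65.8, 99.2 and 82.8% in the LmnB1 libraries and 8.6, 0, 17 and 21.2% in the mCherry libraries. Every LmnB1 value exceeded every mCherry value in 6 bins of the region, and in 9.43% of all bins tested.

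How the LmnB1 libraries filled the stretch differed between clones and replicates. LmnB1_6 replicate 1 covered it with 3 domains and gaps of at most 5 kb, and 1 of these ran over 1547 kb from 83646001 to 85193000 with 24781 H3K9me3 over 13111 input reads, a ratio of 1.89. LmnB1_6 replicate 2 covered it with 25 domains of 13 to 189 kb, with gaps up to 39 kb. The LmnB1_16 replicates had 10 and 8 domains and shared a weak place some way past the parting edge. There LmnB1_16 replicate 1 had no listed window from 83323001 to 83393000 and LmnB1_16 replicate 2 none from 83329001 to 83556000, 70 and 227 kb. Both LmnB1_6 replicates listed most of that place, so the lowest LmnB1 coverage in the stretch belonged to 1 clone.

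The mCherry domains in the stretch were short and scattered. There were 41 in the 4 mCherry libraries, 7 and 8 in mCherry_3 and 14 and 12 in mCherry_4, each wholly inside the stretch and 10 to 43 kb long with a median of 19 kb. The 46 LmnB1 domains there were 13 to 1547 kb long with a median of 77.5 kb. The longest run without a listed window was 467 and 619 kb in the mCherry_3 replicates and 384 and 523 kb in the mCherry_4 replicates, against 70, 227, 5 and 39 kb in the LmnB1 libraries. In mCherry libraries 1469 windows were listed in 0, 434 in 1, 133 in 2, 51 in 3 and 0 in all 4 libraries. At least 2 mCherry libraries listed the same windows at 10 places of 9 to 29 kb, 184 windows together. The longest was 83647001 to 83676000, next to 84877001 to 84905000 at 28 kb, and 3 mCherry libraries listed part of each.

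Runs of at least 10 windows with all 4 LmnB1 and no mCherry libraries numbered 24, all of them in the parted stretch, with 1006 windows between them. The longest were 84639001 to 84759000 at 120 kb, 84136001 to 84252000 at 116 kb and 84911001 to 85026000 at 115 kb. On all chromosomes together these ranked 2, 3 and 4 by length, after 1 run of 137 kb on chromosome 7. The longest run matches a single domain of LmnB1_6 replicate 2 with the same ends, 1450 H3K9me3 reads over 1024 input reads, a ratio of 1.42. Over 41 steps of 50 kb inside the stretch, the LmnB1 mean exceeded the mCherry mean by at least 50 points in 39 and every LmnB1 library exceeded every mCherry library in 37. Over all 25438 steps of the genome listed in any library the shares were 5.18% and 1.91%. The stretch was delimited on this contrast, so nothing is read from these counts. By the sum that set its ends, no other chromosome held a stretch as high, and the second had 202.5 against 667 windows of excess here. That sum is the contrast on which the region was chosen, so nothing is read from this rank either.

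**Figure D3:**
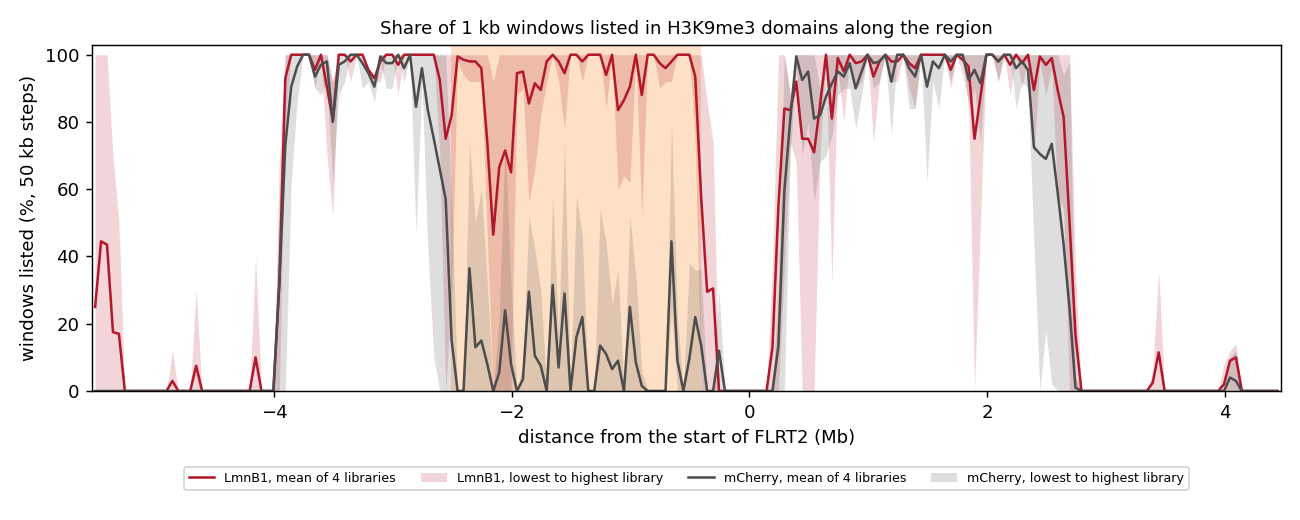
Share of windows listed, in percent, in steps of 50 kb along the region, with lines for the mean of the 4 LmnB1 and the 4 mCherry libraries and bands from the lowest to the highest library; the x axis is the distance from the start of FLRT2 in Mb. The lines are close over most of both shared blocks, separate near some of the blocks' ends and lie far apart in the shaded stretch, where the LmnB1 mean is at least 50 points above the mCherry mean in 39 of 41 steps (5.18% of all steps listed in any library).

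At its far end the stretch thinned towards FLRT2 in a different place in each LmnB1 library. In the 50 kb before 85115000, 50, 50, 50 and 22 kb were listed in the LmnB1 libraries, against 0, 18, 15 and 0 kb in the mCherry libraries. In the 50 kb after it the LmnB1 libraries had 39, 0, 50 and 0 kb and the mCherry libraries 0, 9, 18 and 0 kb, so the groups overlapped. At 83028000, too, the groups overlapped in the 50 kb outside the stretch and not in the 50 kb inside it. In the 180 kb tail up to 85295000, LmnB1 libraries listed 52, 0, 115 and 23 kb and mCherry libraries 15, 9, 18 and 9 kb.

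The domains' read ratios can be compared only where a library has listed domains, since the files give no reads outside them. In the parted stretch, H3K9me3 over input reads was 1.85 and 1.87 in the LmnB1_16 replicates and 1.90 and 1.45 in the LmnB1_6 replicates, against 1.32 and 1.34 in the mCherry_3 replicates and 0.692 and 1.39 in the mCherry_4 replicates. In the first shared block the LmnB1 ratios were 2.03, 1.98, 1.93 and 1.48, and the mCherry ratios 1.59, 1.56, 0.80 and 1.45. In the second shared block they were 1.97, 1.94, 1.87 and 1.48 in LmnB1 libraries and 1.57, 1.52, 0.781 and 1.43 in mCherry libraries. Each LmnB1 ratio exceeded each mCherry ratio in the parted stretch. In both shared blocks the ratios overlapped, with LmnB1_6 replicate 2 below the 2 mCherry_3 replicates. The low mCherry_4 replicate 1 values go with that library's depth of 0.421 relative to input, and depth differed between constructs in the same direction as the ratios.

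The authors' log2 enrichment, which divides out that depth, overlapped between constructs in both shared blocks. Weighted by domain length, it was 1.21, 0.97, 1.03 and 0.72 in the LmnB1 libraries in the first block, against 0.96, 0.93, 0.92 and 0.76 in the mCherry libraries. LmnB1_6 replicate 2 was thus the weakest of all 8 libraries there. In the parted stretch it was 1.02, 0.86, 1.01 and 0.69 in the LmnB1 libraries, against 0.68, 0.71, 0.71 and 0.70 in the mCherry libraries. These weighted mCherry values lay close to 0.6, the lowest value in any list, and LmnB1_6 replicate 2 lay among them. Single mCherry domains of the stretch ran from 0.60 to 0.99 with a median of 0.69. Single LmnB1 domains ran from 0.61 to 1.20 with a median of 0.74. LmnB1_6 replicate 2, with an enrichment of 0.72 in the first block, listed 89.7% of the stretch. mCherry_4 replicate 2, with 0.76 in the first block, listed 9.87%. Depth relative to input was 0.902 in the former and 0.859 in the latter. The pair was picked after its values were seen, and the part of depth was not tested. In the second block the enrichment was 1.16, 0.95, 0.99 and 0.71 in LmnB1 libraries and 0.94, 0.90, 0.89 and 0.74 in mCherry libraries.

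**Figure D4:**
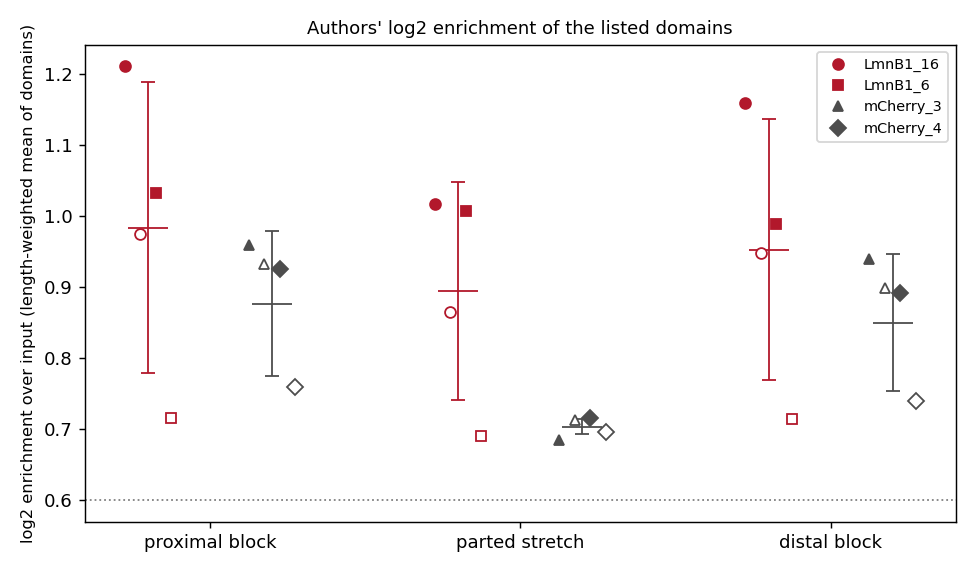
The authors' log2 enrichment over input, averaged over listed domains by length, for both shared blocks and the parted stretch, one point per library, with filled symbols for replicate 1 and open symbols for replicate 2; bars are the mean and SD with the mCherry_3 replicates counted once and the dotted line is the lowest value in any list, 0.6. LmnB1 and mCherry libraries overlap in all 3 places, with mCherry libraries at 0.68 to 0.71 in the parted stretch.

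Within each library, the enrichment of the parted stretch was below that of the first block. The difference was -0.19 and -0.11 in the LmnB1_16 replicates and -0.03 and -0.03 in the LmnB1_6 replicates, against -0.27 and -0.22 in the mCherry_3 replicates and -0.21 and -0.06 in the mCherry_4 replicates. In LmnB1_6 the listed domains of the stretch had almost the enrichment of those in the block that all libraries share. No listed domain lies below 0.6, which limits this difference in LmnB1_6 replicate 2, at 0.69 against 0.72. The same limit applies to mCherry_4 replicate 2, at 0.70 against 0.76. In LmnB1_16 and LmnB1_6 replicate 1, the domain across the parting edge enters both sides with the same value. In LmnB1_16 replicate 1 the domains that follow the one across the parting edge were weaker, such as 217 kb from 83537001 to 83754000 with a log2 enrichment of 0.75, against 1.13 over the 621 kb from 83804001 to 84425000. Input reads per kb, over the whole of each domain that touches the stretch, were 8.40 to 8.46 in the LmnB1 libraries, close to the shared blocks. They were 7.66 to 8.17 in the mCherry libraries. Enrichment divides by input, and the mCherry domains listed there lay where input was thinner, whose part in their listing was not tested.

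The difference in listed length followed the enrichment required. With domains of log2 enrichment of at least 0.8 alone, the stretch had 1582, 1451, 2078 and 330 kb in the LmnB1 libraries, against 0, 31, 28 and 22 kb in the mCherry libraries. LmnB1_6 replicate 2 lost most of its domains under that minimum also in the first shared block, where 14 kb of it were left. With each list shortened, by score, to the covered length of the shortest list, the stretch had 887, 1172, 2078 and 1502 kb in the LmnB1 libraries, against 0, 12, 67 and 206 kb in the mCherry libraries. With the highest-scoring 50% of each list, it had 266, 301, 2078 and 412 kb in the LmnB1 libraries, against 0, 12, 28 and 65 kb in the mCherry libraries. Every LmnB1 library stayed above every mCherry library under these 3 settings. They filter the same lists over a stretch delimited on this contrast, so this order is no separate support. Over the whole region, windows listed in all 4 LmnB1 and no mCherry libraries numbered 164, 497 and 118 in place of 1087.

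The genes next to the parting edges stood far from them. The nearest protein-coding gene left of 83028000 was SEL1L, an adaptor of the ubiquitin ligase that clears misfolded proteins from the endoplasmic reticulum, 1494 kb away. To the right it was LOC124903401, a gene model of unknown function inside the stretch, 935 kb away. FLRT2, a membrane protein of cell adhesion and axon guidance, lay 415 kb beyond the far end of the stretch. No base of FLRT2 was in a listed domain of any library. The closest listed window on its left was 235 kb before its start in mCherry_4 replicate 2 and 415 kb before it in LmnB1_16 replicate 2. On its right the closest was 76.6 kb past its end in LmnB1_16 replicate 2 and the farthest 199 kb, in mCherry_3 replicate 2.

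LOC124903401, from 83963372 to 83974903, was covered for 100% in each LmnB1 library, for 100% in mCherry_4 replicate 1 and for 0% in the 3 other mCherry libraries. The mCherry_4 replicate 1 value came from 1 domain of 43 kb from 83944001 to 83987000, with 227 H3K9me3 over 343 input reads. The stretch also overlapped 6 lncRNA genes and 7 pseudogenes, and the lncRNAs are named here after their values were seen. LINC02305 and LOC124903402 were covered for 100% in all 4 LmnB1 libraries and for 0% in all 4 mCherry libraries. LOC105370603 was covered for 100% in each LmnB1 library, and for 31.7% in mCherry_3 replicate 2 and 0% in the other mCherry libraries. LOC105370601 had 85.2, 100, 100 and 100% in LmnB1 libraries and 0, 0, 0 and 81.1% in mCherry libraries. LOC107984645 had 100, 100, 100 and 81.2% in LmnB1 libraries and 0, 0, 4.66 and 0% in mCherry libraries. LOC105370600, which lies across the parting edge, had 100, 100, 100 and 13.2% in LmnB1 libraries and 57.7, 0, 0 and 0% in mCherry libraries, and its values overlapped.

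The second shared block, between FLRT2 and KCNK10, was listed over 2516 and 2516 kb in the LmnB1_16 replicates and 2356 and 1918 kb in the LmnB1_6 replicates, against 2373 and 2378 kb in the mCherry_3 replicates and 2055 and 1982 kb in the mCherry_4 replicates. The values overlapped and LmnB1_6 replicate 2 was the lowest of all 8. The means were 2326.5 ± 283 kb (SD, n = 4) in LmnB1 libraries and 2137.5 ± 209 kb (SD, n = 3) in mCherry libraries. The difference was 189 kb, and 129.5 kb with each mCherry_3 replicate counted. All 8 libraries listed 1485 of its windows, 58.5% of the block. A gap from 85886001 to 85892000 was in no list, and 6 libraries had a domain start at 85892001, among them LmnB1_16 replicate 1, whose domain from there to 88265000 was the longest of the region at 2373 kb and had a read ratio of 1.98.

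Of 20 protein-coding genes in the region, 8 had a listed base in some library and 12 had none. At the far end of the second block, 3 genes were covered in both constructs, with values that overlapped between them. GALC, the lysosomal enzyme that breaks down galactosylceramide and is lacking in Krabbe disease, was covered for 100, 100, 88.5 and 75.3% in the LmnB1 libraries, against 93.4, 100, 60.5 and 0% in the mCherry libraries. GPR65, a receptor that senses protons outside the cell, had 100, 100, 100 and 60.05% in the LmnB1 libraries, against 100, 100, 0 and 39.4% in the mCherry libraries. KCNK10, a potassium channel of the TREK family, had 57.8, 59.9, 0 and 4.01% in the LmnB1 libraries, against 6.74, 46.2, 0 and 0% in the mCherry libraries. The block's end lay inside KCNK10 or before it, reaching 87.9 kb past its lower coordinate in LmnB1_16 replicate 2 and stopping 129 kb short of it in mCherry_4 replicate 2. These 3 genes and LOC124903401 were the 4 with enough coverage to be tested with limma. None was called, 1 of them, LOC124903401, had an unadjusted p below 0.05, and 0.304% of all 2304 genes tested were called.

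The other genes with a listed base had little. FOXN3, a forkhead transcription factor, had 3.46, 2.81, 2.81 and 0% in LmnB1 libraries and 1.08, 1.94, 0 and 0% in mCherry libraries. DIO2, the deiodinase that makes active thyroid hormone in tissues, had 24.0% and STON2, an adaptor of endocytosis, 11.4%, both in LmnB1_6 replicate 1 alone. CEP128, a protein of the centriole, had 4.35% in LmnB1_16 replicate 1 alone. TSHR, the thyrotropin receptor, SEL1L and FLRT2 were among the 12 with none, as were GTF2A1 of the general transcription factor TFIIA, SPATA7, PTPN21, LOC124903405, ZC3H14, EML5, TTC8, EFCAB11 and TDP1. The first gene beyond the region was NRXN3, a neurexin of synapses, on the left and LOC124903406 on the right.

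Between 80000001 and 81566000, where 6 of the genes lie, LmnB1 libraries listed 26, 4, 230 and 76 kb and mCherry libraries 0 kb each. Most of the LmnB1 length came from LmnB1_6, whose replicate 1 had a domain of 341 kb that began at 79811001, outside the region, and ended at 80152000. From 88268001 to 90000000, which 10 of the genes overlap, LmnB1 libraries listed 37, 13, 20 and 0 kb and mCherry libraries 5, 9, 0 and 0 kb. Across all tested bins without a protein-coding gene, 668 in number, the median difference in covered percent was 3.65 points, near the 2.95 points over all 2143 tested bins. The 9 such bins of the region had a median of 10.9 points, with quartiles of 0.4 and 71.35 points. All 15 tested bins of the region had the same median. Large differences were thus in some of its gene-free bins and not in the others. The bin from 83500001 to 84000000, which holds LOC124903401, had 78.5 points. The region was chosen on this contrast, so nothing is read from these medians.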

How the data were processed

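Each H3K9me3 library came with a list of enriched domains on GRCh38, per the submitters' processing notes, which name SICER, DiffBind 3.0.15, DESeq2 and deepTools without saying which made the lists. No aligner is named there. In the deposited lists each domain has its H3K9me3 and input read counts, a p-value and FDR (the authors' values, not used for tests here), a log2 enrichment of at least 0.6, and a score of 100 times that log2 value. Tested on the files, the deposited log2 is the log2 of the H3K9me3 over the input count, shifted by 1 fixed amount in each list, which gives depth relative to input. Domains with the same coordinates had the same input count in 2546 of 2546 cases. Counts exist only inside each library's own list, so no count model was used, and an unlisted window may still hold reads.

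Lists were laid on a grid of 1 kb windows, with 1 added to the deposited ends so that neighbouring windows meet. Listed length, domains, gaps, edges and the ratio of H3K9me3 to input reads were read off per library. For a domain across a segment's end, listed length and the weights of the enrichment used its overlap. Its reads, its input per kb and its own length were taken whole in each segment that it touched. Each LmnB1 or mCherry clone is a group of 2 replicates. Nothing in the labels says whether replicates were separate cultures. Covered percent per 500 kb bin and per protein-coding gene was compared between constructs with limma 3.58.1 (R 4.3.3), in which the clone was a random block, where the mean covered percent was at least 5, and with Benjamini-Hochberg adjustment over all bins or genes. These fits, tested on simulated data, serve only as the background. The region and the lists of genes were chosen with earlier results of these data known. Protein-coding genes were named where any library listed a base of them or where they flank a parting edge or an end of the region, and gene coordinates and promoter sequences are RefSeq's on GRCh38.p14. Replicate numbers did not pair the samples across clones (correlations of deviations -0.06 to 0.24). Alternatives changed the block, the minimum coverage, the bins, the domain length, enrichment and score required, joining of domains, and the libraries included.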

Additional observations from a re-analysis of the deposited data

Results flagged for a closer look

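LmnB1_6 replicate 2 stood apart from the other LmnB1 libraries in several of its values, with a gap to the nearest library that took up most of the group's range. It had 62 domains in the region, where the other LmnB1 libraries had 17 to 24. Its ratio of H3K9me3 to input reads was 1.47 over the whole region, against 1.88 to 1.92 in the others, and 1.45 in the parted stretch, against 1.85 to 1.90. It listed 1261 kb of the first shared block, where the others listed 1421 to 1448 kb.

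mCherry_4 replicate 1 stood apart from the other mCherry libraries in its read ratio, 0.780 over the whole region against 1.44 to 1.57, and 0.692 in the parted stretch against 1.32 to 1.39. Its depth relative to input was 0.421. Of 32 groups of 4 libraries looked at in this way 6 had such a library, and chance gives about 1 in 20. Counts and ratios of 1 library share their reads, so these 6 are not separate.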

How the results depend on the processing

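Of 115 alternative values, 84 stayed in the main direction and within 1.5 times the main count or 1 SD of the main value, 29 moved and 2 turned round. The 3 called 500 kb bins of the region became 7 in bins of 250 kb. They became 0 with a log2 enrichment of at least 0.8, 0 with the highest-scoring 50% and 0 at the covered length of the shortest list, with 4, 1 and 3 bins at an unadjusted p below 0.05 in limma. Leaving out 1 library gave 2 to 4, with 2 without either LmnB1_6 replicate. Genome-wide the 5 called bins became 21 with no block for the clone, 13 at a mean coverage of at least 20%, 16 minus each library's mean (15 higher and 1 lower with LmnB1), 2 shifted by 250 kb, 17 in bins of 250 kb and 12 with domains under 10 kb apart joined. They became 0, 0 and 1 under the 3 stricter lists, with 14, 62 and 69 bins at an unadjusted p below 0.05, and the 1 bin, at equal covered length, was lower with LmnB1, opposite to the 5. The cause was not tested. They were 3 to 8 with 1 library left out, lowest without LmnB1_6 replicate 1 and highest without LmnB1_16 replicate 2. The 7 called genes became 2 at a log2 enrichment of at least 0.8. They were 8 to 60 with 1 library left out, 60 without LmnB1_6 replicate 2, 15 without mCherry_4 replicate 2 (7 higher and 8 lower with LmnB1, against 5 and 2 of the 7; the cause was not tested) and 11 without either mCherry_3 replicate.

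With the replicate block there were 8 called bins, 3 of them in the region, and 7 called genes, and the replicate numbers did not pair the samples.

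The difference in listed length over the region, 2061.5 kb, was 1161 kb with the highest-scoring 50% and 1652 kb at the covered length of the shortest list, and 1918 to 2275 kb with 1 library left out. Over the called bins, 1275 kb became 951 kb at a log2 enrichment of at least 0.8, 407 kb with the highest-scoring 50% and 977 kb at equal covered length, and was 1251 to 1294 kb with 1 library left out. The 1087 windows listed in all 4 LmnB1 and no mCherry libraries became 164, 118 and 497 under the same 3 lists and 1804 at no fewer than 3 against at most 1, and were 1092 to 1212 with 1 library left out. The difference in log2 read ratio over the region, 0.48, was 0.071 once divided by depth. It was 0.24 to 0.58 with 1 library left out, lowest without mCherry_4 replicate 1.

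Depth differed between the constructs and the lists hold no reads outside domains. In the unlisted windows of the parted stretch, the mCherry level is thus known only to lie below what the mCherry lists required. Only 2 clones stand for each construct.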
